A study of Mus musculus with 8 samples.

Results

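The SLC25 family holds the carrier proteins that move metabolites across the inner membrane of mitochondria, the energy-producing compartments of the cell. Each carrier is a small protein of repeated membrane-spanning units that binds its substrate on one side of the membrane and releases it on the other, often in exchange for a second substrate. In the liver these carriers link the mitochondrial and cytosolic steps of the urea cycle, gluconeogenesis, fatty acid oxidation and haem synthesis, and they supply mitochondria with nucleotides, cofactors and iron. All genes whose symbol is Slc25a followed by a number were taken from a table of liver microarray values, which gave 46 of the 22180 genes measured. Each member was read by 1 array feature, a set of probes against one transcript.

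The livers came from wild-type adult male mice, bought at 7 weeks of age and kept for 2 weeks before the experiment. The 4 control mice, labelled C57BL/6J, received PBS, the vehicle, and the 4 treated mice, labelled C57BL/6 x CBA, received 0.5 µg of recombinant mouse IL1B by injection into the abdominal cavity. IL1B is a cytokine that starts the acute inflammatory response, and livers were taken at 3 h to ask how this response changes liver transcripts. The study's description names C57BL/6J for all mice, so the strain label and the treatment cannot be told apart as far as the sample labels go. Nnt, which carries a deletion in C57BL/6J, had log2 means of 9.62 in PBS and 9.29 in IL1B (adjusted p = 0.506), and H2-Ea, which C57BL/6 mice do not transcribe, lay at background on all 8 arrays. Neither reading settles the strain of the mice, which was not tested. One RNA sample per mouse was hybridised to a mouse gene array, and values are log2 signals after robust multi-array averaging (RMA), so that a difference of 1 is a doubling of signal. Levels of different genes are not compared, because probes differ in how strongly they bind.

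Correlations between arrays across genes ran from 0.965 to 0.993. A level was called at background when it did not exceed the 95th percentile of 1105 olfactory receptor genes on the same array, a value of 6.16 to 6.61. Of 9 hepatocyte markers, including albumin (Alb), 7 were at the upper limit of the scale in both groups, and none was called. The 10 neutrophil markers were at background on every PBS array except for Csf3r. After IL1B, 7 were higher and none lower, and their log2 summed level was 8.21 to 8.87 on the PBS arrays but 14.80, 15.31, 11.11 and 10.86 on IL1B arrays 1 to 4. The 7 Kupffer cell markers (liver macrophages) summed to 13.26 to 14.42 in PBS and to 16.50, 15.63, 13.46 and 12.92 in IL1B, with none called. Each of the 3 measured erythroid markers was at background in both groups, as were 7 of 8 lymphocyte markers, of which Ms4a1 was called lower. Among 6 endothelial markers 2 were higher and 2 lower, and among 6 stellate cell markers 1 was lower. The part of these cell types in the results on carriers was not tested, and in whole-liver RNA fewer cells of a type and less RNA per cell cannot be told apart.

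After IL1B, 9 SLC25 genes differed at an adjusted p of 0.05 or less by limma, with Benjamini-Hochberg adjustment over all 22180 genes. Of these, 6 fell (13% of 46, against 5.32% of all genes called lower): the uncoupling protein relative Slc25a30, the coenzyme A carrier Slc25a42, the pyrimidine nucleotide carrier Slc25a33, the oxoglutarate/malate carrier Slc25a11, the orphan carrier Slc25a35 and the outer-membrane protein Slc25a46. The other 3 rose (6.52%, against 7.19% of all genes): the NAD carrier Slc25a51 and both mitoferrins, the iron carriers Slc25a37 and Slc25a28. With quantile normalisation of the arrays, 9 members were lower (6.81% of all genes were called lower there) and 1, Slc25a51, was higher (5.95% of all genes). A mean above background was found for 33 members, and 5 of these were lower (15.2%, against 9.24% of the 9530 genes with such a mean) and 3 higher (9.09%, against 15.1%). At the looser adjusted p of 0.15 used in the study's methods, 14 members were lower (30.4%, against 11.7%) and 5 higher (10.9%, against 11.9%). IL1B and PBS values did not overlap for 14 members, with IL1B below in 10 (21.7%, against 9.14% of all genes) and above in 4 (8.7%, against 9.81%). The median log2 fold change over the 46 members was -0.22 beside -0.06 over all genes, and over the 33 brighter members it was -0.30 beside 0.03. These medians describe the list and were not tested, and the number of arrays, 4 per group, limits their precision. The plot of fold changes by substrate class shows the called genes among all members.

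**Figure D1:**
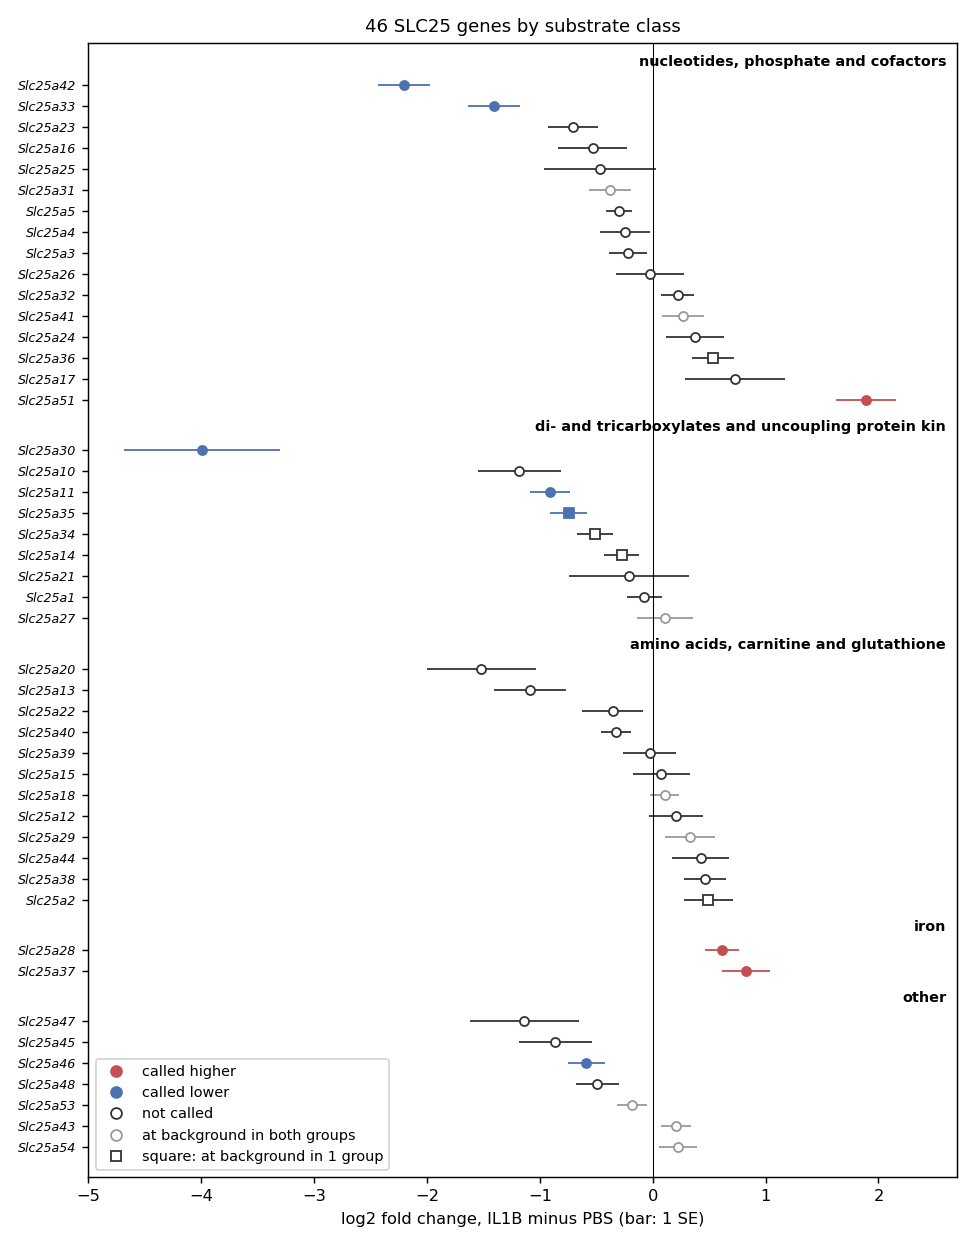
Log2 fold change of each of the 46 SLC25 genes, IL1B minus PBS, on the x axis, with bars of 1 SE from limma on 4 arrays per group. Genes are ordered within substrate classes, filled points mark the 9 called genes and grey open points the 8 at background in both groups. Squares mark the 5 genes at background throughout 1 group, whose plotted values are fitted and not measured on both sides. The called genes run from -3.99 for Slc25a30 to 1.89 for Slc25a51, and both iron carriers lie to the right of 0.

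The promoters of the called genes are shown because their transcripts moved within 3 h. RefSeq promoter windows, which run from 250 bases before to 50 bases after a transcript start (build GRCm38.p6), matched 36 of the 46 members and 5 of the 9 called genes. The called genes without an entry are Slc25a35, Slc25a37, Slc25a46 and Slc25a51. The 150 bases before the start are printed 5′ to 3′ on the strand of the gene, all on the minus strand, for the 3 called genes with an entry that fell most and for the iron carrier with an entry. They lie at chr14:75787038-75787187 for Slc25a30, chr8:70212282-70212431 for Slc25a42, chr4:149774268-149774417 for Slc25a33 and chr19:43674882-43675031 for Slc25a28. Capitals mark the E-box CACGTG, a motif bound by MYC, USF and related factors, 8 to 3 bases before the start of Slc25a33.
Slc25a30: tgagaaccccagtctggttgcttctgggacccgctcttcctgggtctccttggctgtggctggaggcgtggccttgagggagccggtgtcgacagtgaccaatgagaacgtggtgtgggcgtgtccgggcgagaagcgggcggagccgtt
Slc25a42: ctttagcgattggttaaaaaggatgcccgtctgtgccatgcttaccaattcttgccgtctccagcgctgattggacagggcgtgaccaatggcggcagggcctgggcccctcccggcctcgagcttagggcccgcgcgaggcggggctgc
Slc25a33: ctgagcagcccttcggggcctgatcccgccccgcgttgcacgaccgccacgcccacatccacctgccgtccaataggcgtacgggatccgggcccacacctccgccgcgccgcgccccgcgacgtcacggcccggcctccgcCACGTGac
Slc25a28: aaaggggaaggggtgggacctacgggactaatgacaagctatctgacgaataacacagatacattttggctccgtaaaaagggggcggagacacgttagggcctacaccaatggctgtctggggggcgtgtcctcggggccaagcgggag
The Slc25a33 stretch is the richest of the 4 in G and C, at 75.3%, beside 64.7% for Slc25a30, 64% for Slc25a42 and 56.7% for Slc25a28. The E-box reads the same on both strands, and it was found in 8 of the 46 windows of the 36 matched members (17.4%), which belong to 7 genes, and in 7.15% of all 32851 windows. Those genes are Slc25a1, Slc25a13, Slc25a14, Slc25a15, Slc25a31, Slc25a33 and Slc25a36, so that among the called genes with an entry the motif was present in Slc25a33 alone. Searched on both strands, the NRF1 motif was found in 4.35% of member windows and 4.6% of all, the extended nuclear receptor half-site AAGGTCA in 2.17% and 4.72%, the STAT motif TTCNNNGAA in 4.35% and 8.3%, and the FOXO motif GTAAACA in 0 of 46 and 3.65%. None of these other motifs was in a window of a called gene. The median share of G and C was 59.3% in member windows and 52.7% in all windows, and the motif shares were not adjusted for this. A match describes these letters in the window and is no evidence of binding.

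Carriers of di- and tricarboxylates and relatives of the uncoupling proteins, which include the shuttles of malate, citrate and oxoglutarate, numbered 9. Of these 3 fell and none rose, where 5.32% of all genes were called lower and 7.19% higher. The 3 include Slc25a35, placed in this class without an established substrate and at background on every IL1B array. The median log2 fold change was -0.51, but only 5 of the 9 had a mean above background. Slc25a30 is a relative of the uncoupling proteins, also known as kidney mitochondrial carrier protein. Its log2 values were 14.53, 14.19, 12.15 and 16.17 on PBS arrays 1 to 4 and 10.08, 9.74, 10.92 and 10.34 on IL1B arrays 1 to 4. Every IL1B array was lower than every PBS array, although the PBS arrays themselves spread widely around PBS 3 as the lowest and PBS 4 as the highest. The fold change was the largest in size within the family, -3.99 ± 0.69 (log2, SE; adjusted p = 0.006 by limma), or 15.9-fold lower, and 0.00902% of all genes had a lower fold change. Slc25a11 exchanges oxoglutarate for malate in the malate-aspartate shuttle. It read 13.92, 13.48, 13.80 and 13.22 in PBS and 12.71, 12.47, 12.75 and 12.85 in IL1B. The groups did not overlap, with PBS 4 and IL1B 4 the nearest arrays, and the fold change was -0.91 ± 0.18 (adjusted p = 0.0103).

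Slc25a35, a carrier without an established substrate, was dim. It read 6.66, 6.41, 6.46 and 6.29 in PBS, above background on PBS 1 and PBS 3 alone, and 5.82, 5.90, 5.31 and 5.81 in IL1B, at background on all 4 arrays. With PBS 2 and PBS 4 at background too, no smallest fall can be given. The fitted log2 fold change was -0.74 ± 0.16 (adjusted p = 0.0178 by limma). A feature assigned to both Slc25a35 and its neighbour Rangrf was not used for the member, and its fold change was -0.52 ± 0.29 (adjusted p = 0.358). Its closest relative Slc25a34 was also at background on every IL1B array, and on PBS 1 and PBS 2, so no smallest fall can be given for it. It did not pass (fitted log2 fold change -0.51 ± 0.16, adjusted p = 0.0676 by limma). The dicarboxylate carrier Slc25a10, which exchanges malate or succinate for phosphate, read 11.01, 9.91, 11.25 and 10.17 in PBS and 9.34, 8.57, 9.75 and 9.95 in IL1B. Only PBS 2 and IL1B 4 crossed, and the fold change of -1.18 ± 0.37 missed the threshold (adjusted p = 0.0683). It passed with quantile normalisation (adjusted p = 0.0321 by limma) and the filter on dim genes (0.0479), but not with median centring (0.0795) or array weights (0.0564). The citrate carrier Slc25a1, which exports citrate for lipid synthesis, had means (± SD, n = 4) of 15.29 ± 0.21 for PBS and 15.21 ± 0.19 for IL1B, a fold change of -0.07 ± 0.16. The oxodicarboxylate carrier Slc25a21, of lysine and tryptophan breakdown, was low on PBS 2 (8.79), IL1B 1 (9.29) and IL1B 2 (8.82) and between 10.33 and 10.78 on the other 5 arrays (fold change -0.21 ± 0.53).

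Nucleotides, phosphate or cofactors are carried by 16 members, and of these 2 fell and 1 rose (5.32% and 7.19% of all genes), with a median of -0.23. Slc25a51 brings NAD, the electron carrier of respiration, into mitochondria. It read 9.69, 10.04, 10.29 and 11.00 in PBS and 12.36, 12.28, 12.12 and 11.82 in IL1B. The lowest IL1B array exceeded the highest PBS array, and the rise of 1.89 ± 0.26 (3.71-fold; adjusted p = 0.00195) was the largest in the family, with 98.7% of all genes having a lower fold change. Slc25a42 takes coenzyme A, the acyl carrier of fatty acid oxidation, into the matrix. Its values were 12.08, 11.95, 12.52 and 13.04 in PBS and 10.24, 10.28, 10.01 and 10.25 in IL1B. The IL1B arrays were close together (SD 0.13) and all lay well below the PBS arrays (SD 0.50), giving the smallest adjusted p of any member, 0.000413, at a fold change of -2.20 ± 0.23, or 4.6-fold lower. Slc25a33 imports pyrimidine nucleotides for mitochondrial DNA and RNA synthesis. It read 10.82, 10.55, 10.85 and 10.79 in PBS and 9.48, 8.61, 9.64 and 9.65 in IL1B. PBS arrays were tight, IL1B 2 was the lowest, and the fold change was -1.41 ± 0.23 (2.65-fold lower; adjusted p = 0.00451).

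The other carriers of this class did not pass the test. Slc25a5, the main ADP/ATP exchanger of liver mitochondria, varied little within groups, with means (± SD, n = 4) of 17.79 ± 0.07 for PBS and 17.50 ± 0.07 for IL1B. Its groups did not overlap, yet the shift of -0.30 ± 0.11 was short of the threshold (adjusted p = 0.132). Its muscle-type counterpart Slc25a4 differed by -0.25 ± 0.22 (adjusted p = 0.53). Slc25a23, which exchanges ATP-Mg for phosphate in response to calcium, read 15.52, 14.94, 15.57 and 15.68 in PBS and 14.79, 14.21, 14.90 and 14.99 in IL1B. The ranges met only through PBS 2, and the fold change was -0.71 ± 0.22 (adjusted p = 0.0694). Slc25a23 passed with quantile normalisation (adjusted p = 0.0432 by limma), the filter on dim genes (0.0453) and array weights (0.0497), but not with median centring (0.096). Its relative Slc25a24 was below 6.36 on every PBS array and read 7.33, 6.97, 6.21 and 6.15 on IL1B arrays 1 to 4. It was at background on PBS 2, PBS 4, IL1B 3 and IL1B 4, which limits its fold change of 0.37 ± 0.26 (adjusted p = 0.4 by limma). The 2 IL1B arrays with the highest neutrophil and Kupffer cell marker levels were also the 2 with the highest Slc25a24. The third relative, Slc25a25, differed by -0.46 ± 0.50 (adjusted p = 0.606), with IL1B 2 at 10.73 and the other IL1B arrays at 12.69 to 13.14. Slc25a16, which has been linked to coenzyme A, differed by -0.53 ± 0.31 (adjusted p = 0.304). The second pyrimidine nucleotide carrier Slc25a36 was above background on IL1B 2 alone, and no fold is given for it (PBS mean 5.66, IL1B mean 6.20, adjusted p = 0.0964). Fold changes of the phosphate, folate, S-adenosylmethionine and peroxisomal cofactor carriers (Slc25a3, Slc25a32, Slc25a26 and Slc25a17) ran from -0.22 to 0.73.

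Both members that carry iron rose, where 7.19% of all genes were called higher. The mitoferrins bring iron to the matrix, where ferrochelatase (Fech) inserts it into haem and iron-sulphur clusters are built. Slc25a37, mitoferrin 1, is known best from red cell precursors, and it read 10.86, 10.40, 11.00 and 10.77 in PBS and 11.34, 11.17, 11.90 and 11.94 in IL1B. Slc25a28, mitoferrin 2, is used more widely among tissues, and it read 9.88, 9.48, 9.54 and 9.48 in PBS and 10.44, 10.25, 10.04 and 10.13 in IL1B. In both genes each IL1B array exceeded each PBS array, but the order within the IL1B group was opposite, with IL1B 3 and 4 highest for Slc25a37 and IL1B 1 and 2 highest for Slc25a28. The fold changes were 0.83 ± 0.21 (adjusted p = 0.0343) for Slc25a37 and 0.62 ± 0.15 (adjusted p = 0.0257) for Slc25a28. Neither call held when the arrays were quantile normalised (adjusted p = 0.0584 and 0.0761). With 1 array left out at a time, Slc25a37 lost its call in 6 of 8 comparisons (all but those without PBS 3 or IL1B 2) and Slc25a28 in 5 of 8 (without PBS 2, PBS 3, PBS 4, IL1B 1 or IL1B 2). Leaving out IL1B 1 and IL1B 2, where neutrophil markers were highest, gave 1.16 for Slc25a37 (adjusted p = 0.0136) and 0.49 for Slc25a28 (adjusted p = 0.167).

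**Figure D2:**
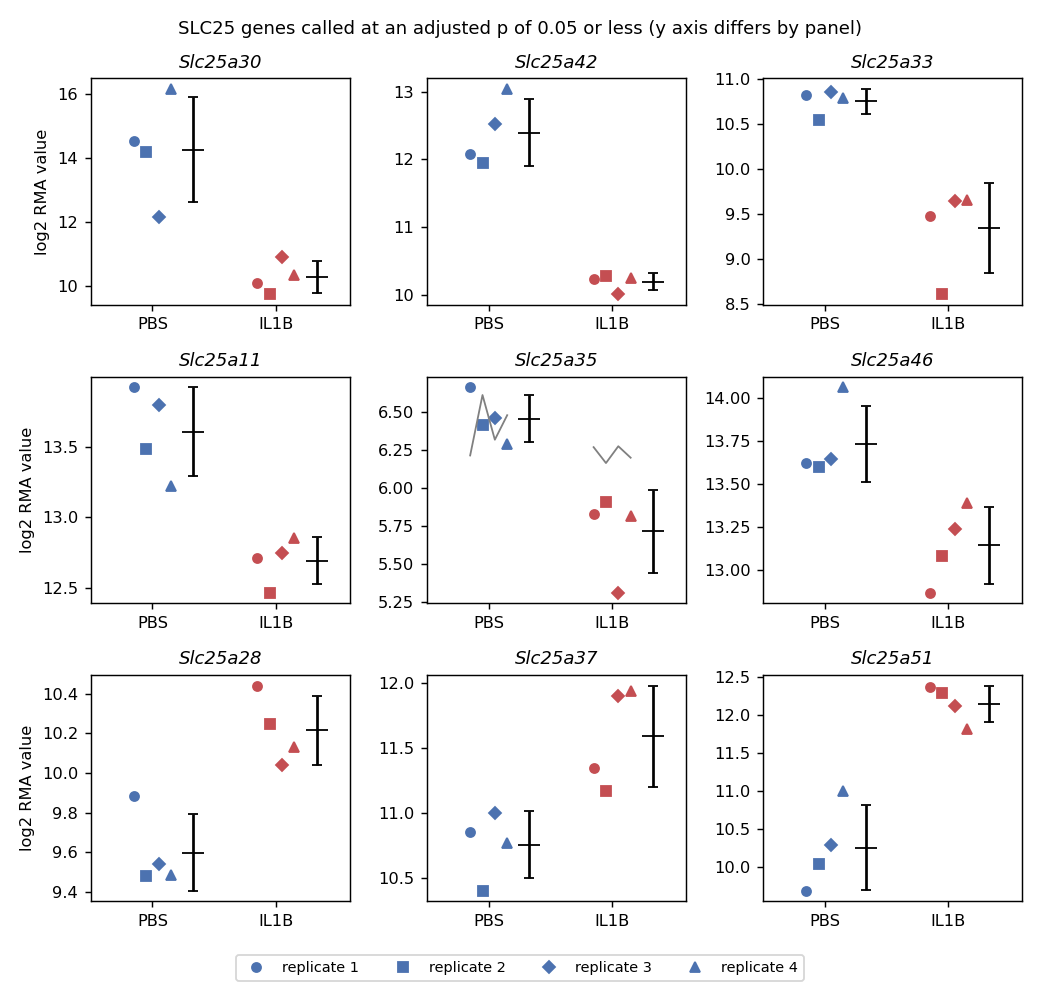
Log2 RMA values of the 9 called SLC25 genes on each array, with PBS in blue, IL1B in red, a marker shape per replicate number, and black lines for the mean and SD of 4 arrays (the y axis differs by panel). The grey lines in the Slc25a35 panel are each array's background, and in all 9 panels every IL1B point lies on one side of every PBS point.

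None of the 12 carriers of amino acids, carnitine and glutathione was called (12.5% of all genes were), and their median was 0.09. The nearest to the threshold was Slc25a13, citrin, the liver aspartate/glutamate carrier that feeds aspartate to the urea cycle. It read 15.54, 14.99, 15.66 and 15.51 in PBS and 14.18, 13.42, 14.94 and 14.81 in IL1B. All IL1B arrays were below all PBS arrays, IL1B 3 only narrowly so, and the fold change was -1.09 ± 0.32 (adjusted p = 0.0564). Slc25a13 did pass with quantile normalisation (adjusted p = 0.0384), with the filter on dim genes (0.0391) and with a trended and robust variance model (0.0453). It did not pass with median centring (0.0669) or array weights (0.0506). Its paralog Slc25a12, aralar, had means of 10.27 ± 0.46 and 10.48 ± 0.28 (SD, n = 4), a fold change of 0.21 ± 0.24. Slc25a20, singled out after its values were seen, imports acylcarnitines for fatty acid oxidation. It read 15.02, 14.46, 15.85 and 15.45 in PBS and 13.43, 12.35, 14.44 and 14.48 in IL1B, and the groups crossed only where IL1B 4 exceeded PBS 2 (fold change -1.52 ± 0.48, adjusted p = 0.0711). For the urea cycle ornithine/citrulline carrier Slc25a15 the fold change was 0.08 ± 0.25, with 16.30 and 16.21 on IL1B 1 and 2 and 15.77 and 15.24 on IL1B 3 and 4. The glutamate carrier Slc25a22 had a like order within IL1B (14.52, 14.25, 14.02 and 13.38; fold change -0.36 ± 0.27). The glutathione carrier Slc25a39 and its relative Slc25a40 differed by -0.03 ± 0.24 and -0.32 ± 0.13 (adjusted p = 0.962 and 0.153). The glycine carrier of haem synthesis Slc25a38 and the branched-chain amino acid carrier Slc25a44 were at 0.47 ± 0.19 and 0.43 ± 0.25 (adjusted p = 0.141 and 0.327).

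Of the 7 members placed in none of these classes, Slc25a46 was called (12.5% of all genes were). It sits in the outer membrane, where it takes part in mitochondrial fusion and fission, and it read 13.62, 13.60, 13.65 and 14.06 in PBS and 12.87, 13.08, 13.24 and 13.39 in IL1B. The groups were separate, with PBS 4 above the rest of its group, and the fold change was -0.59 ± 0.16 (adjusted p = 0.0463), the called value nearest to the threshold. It lost the call when any array other than IL1B 4 was left out. Slc25a47, a carrier enriched in liver and singled out after its values were seen, stayed between 16.31 and 17.0 in PBS but read 15.02, 14.02, 16.31 and 16.45 in IL1B. IL1B 1 and 2 were thus far below the PBS arrays while IL1B 3 and 4 were within their range, and the fold change of -1.14 ± 0.49 did not pass (adjusted p = 0.169). Slc25a45 showed the opposite order, with 8.16 and 8.41 on IL1B 1 and 2 and 7.41 and 7.07 on IL1B 3 and 4, beside 7.99 to 8.95 in PBS (fold change -0.86 ± 0.32, adjusted p = 0.119). Its paralog Slc25a48 differed by -0.49 ± 0.19 (adjusted p = 0.134).

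At background on all 8 arrays were 8 members, so their fold changes of -0.38 to 0.33 carry no order. They are the glutamate carrier Slc25a18, the uncoupling protein relative Slc25a27, the basic amino acid carrier Slc25a29, the germ line ADP/ATP carrier Slc25a31, the ATP-Mg carrier Slc25a41 and the orphan carriers Slc25a43, Slc25a53 and Slc25a54. With the 99th percentile of the olfactory receptor genes as the background, a choice made after seeing the data, 15 members were there in both groups. The ornithine carrier Slc25a2 was above background on IL1B 4 alone and the uncoupling protein relative Slc25a14 on PBS 3 alone. No member was at the upper limit of the scale in both groups.

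The median within-group SD was 0.38 over the 33 brighter members and 0.27 over the 9530 genes with a mean above background. PBS 2 was the lowest PBS array for 24 of these 33 members (41.5% of all brighter genes were lowest there), and IL1B 2 was the lowest IL1B array for 21 of 33 (38.7% of all brighter genes). The median over all 46 members was 10.21, 9.81, 10.71 and 10.54 on PBS arrays 1 to 4 and 9.78, 9.49, 10.02 and 10.19 on IL1B arrays 1 to 4. The 2 lowest IL1B medians thus came from the arrays with the highest neutrophil and Kupffer cell marker levels. With 1 of these arrays left out, the median log2 fold change of the members was -0.19 without IL1B 1 and -0.07 without IL1B 2. Over all genes it was -0.06 in both cases. The part of the marker levels in this was not tested. Leaving out PBS 2 and IL1B 2 gave 8 members lower (3.99% of all genes were lower) and 2 higher (5.35% of all genes). When IL1B 1 and IL1B 2 were left out instead, 4 were lower (2.39% of all genes) and 2 higher (4.64% of all genes). The median log2 fold change was then -0.03 beside -0.06 over all genes, with IL1B 3 and IL1B 4 as the only treated arrays. Of the 6 lower genes Slc25a42, Slc25a33 and Slc25a35 were still called without IL1B 1 and 2, with log2 fold changes of -2.27, -1.10 and -0.90, and Slc25a45 was the other gene called lower. Slc25a30 and Slc25a11 were at -3.63 (adjusted p = 0.0535) and -0.80 (adjusted p = 0.0772) there, and Slc25a46 was at -0.42 (adjusted p = 0.256).

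**Figure D3:**
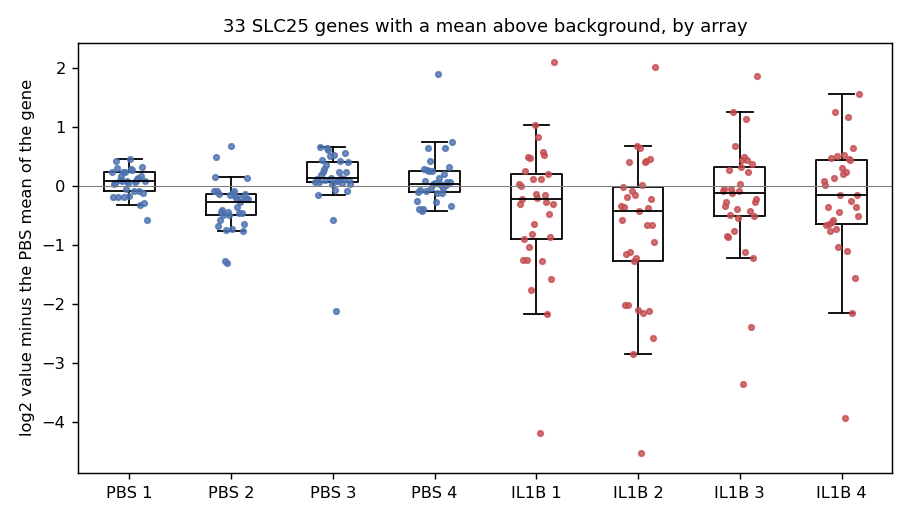
Log2 value of each of the 33 SLC25 genes with a mean above background on each array, minus the gene's mean over the 4 PBS arrays. Each point is 1 gene, boxes show the median and quartiles and whiskers reach to the farthest gene within 1.5 box lengths. PBS 2 and IL1B 2 have the lowest boxes of their groups.

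For 14 pairs of related members, responses were compared by testing the log2 difference between both genes on each array (two-sided exact permutation test over the 70 assignments of arrays to groups, adjusted over 14 pairs). No pair passed an adjusted p of 0.05, and since 0.0286 is the smallest p that 4 arrays against 4 can give, no single pair could have passed on its own. That p was reached by 4 pairs (adjusted p = 0.1, exact permutation test), which means that their differences did not overlap between groups. In 5 of the 14 pairs a gene was at background throughout a group, so no size is given for them, and 2 of the 4 pairs are among these, Slc25a30 with Slc25a14 (at background in IL1B) and Slc25a33 with Slc25a36 (at background in PBS). In the other two, Slc25a42 was 1.67 lower in response than Slc25a16 (SE 0.39), and citrin was 1.29 lower than aralar (SE 0.27), and all 4 of these genes were above background on every array. Slc25a23 and Slc25a24 differed by -1.08 (SE 0.43, exact permutation p = 0.0571, adjusted p = 0.16), with Slc25a24 at background on PBS 2, PBS 4, IL1B 3 and IL1B 4. The mitoferrins differed by 0.21 (SE 0.30; exact permutation p = 0.571, adjusted p = 0.646) and the ADP/ATP carriers Slc25a4 and Slc25a5 by 0.05 (SE 0.25; adjusted p = 0.886, exact permutation test). These p-values do not show that the genes of a pair respond alike. The remaining pairs had an adjusted p of 0.646 (exact permutation test).

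**Figure D4:**
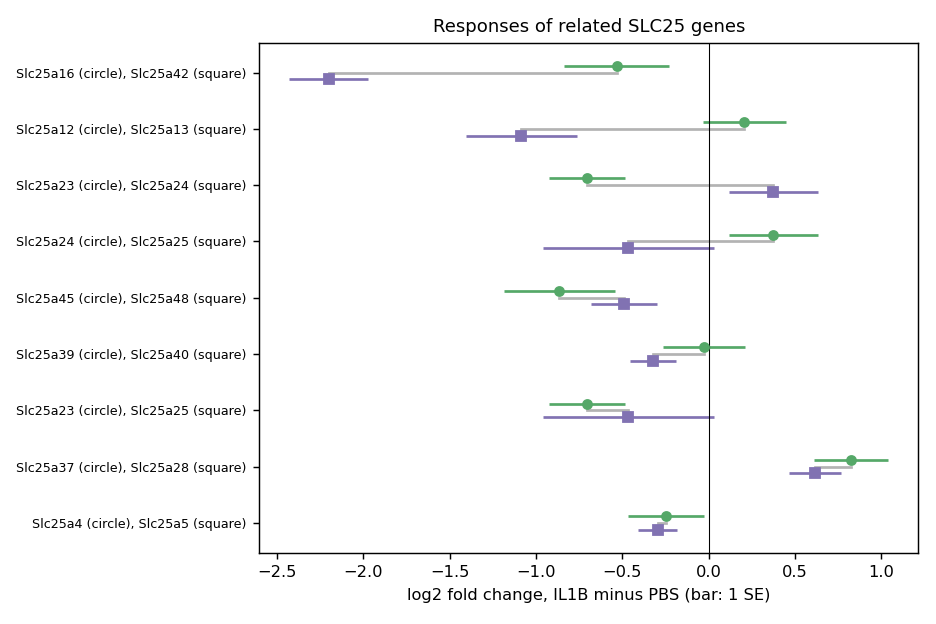
Log2 fold changes, IL1B minus PBS, of both genes in the 9 pairs of related SLC25 genes in which neither gene was at background throughout a group, with bars of 1 SE (n = 4 arrays per group). Circles and squares mark the first and second gene named, and the grey line joins them. The longest lines belong to Slc25a16 with Slc25a42 and Slc25a12 with Slc25a13.

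Other genes that work beside the carriers were counted in the same fit, in which 7.19% of all genes were higher and 5.32% lower. No list was tested as a whole. Of 4 measured relatives of the family with other symbols, Mtch1, an outer-membrane insertase, was lower at -0.55 ± 0.14 (adjusted p = 0.0361). Among 18 other mitochondrial membrane transporters, 2 were lower and none higher, the sideroflexin Sfxn5 (-0.80 ± 0.19, adjusted p = 0.0251) and the porphyrin transporter Abcb6 (-0.76 ± 0.21, adjusted p = 0.0475). None of 14 genes of the route that imports carriers into the membrane was called by limma, with 3 at an unadjusted p under 0.05 and a median of -0.20. Of 27 enzymes that make or use carrier substrates, 2 were higher and 2 lower. Alas1, the first and rate-limiting enzyme of haem synthesis, which uses glycine in the matrix, was higher at 1.32 ± 0.24 (adjusted p = 0.00673). Fech was not called, at -0.73 ± 0.24 (adjusted p = 0.0876 by limma). Pyruvate carboxylase (Pcx) was higher at 0.73 ± 0.20 (adjusted p = 0.0462). Cpt2, which acts on the acylcarnitines brought by Slc25a20, was lower at -1.11 ± 0.32 (adjusted p = 0.0495), and the folate enzyme Mthfd1 was lower at -0.83 ± 0.24 (adjusted p = 0.0499). Of 17 regulators of mitochondrial genes 4 were higher and 2 lower. The coactivator Pprc1 was at 1.68 ± 0.25 (adjusted p = 0.00274) and the mitochondrial rRNA methyltransferase Tfb1m at 0.79 ± 0.15 (adjusted p = 0.00792), while the coactivator Ppargc1b was at -1.16 ± 0.24 (adjusted p = 0.0129) and the mitochondrial DNA-binding factor Tfam at -0.66 ± 0.18 (adjusted p = 0.0406).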

How the data were processed

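RNA from 8 mouse livers was hybridised by the authors to Affymetrix mouse gene arrays. The deposited values are log2 signals, which the authors made in Galaxy with Affymetrix Power Tools (version not given in the sources used here) with GC correction where available, intensity scaling and RMA at probe-set level. Of 41345 features, 23521 carried 1 gene symbol in the platform annotation, 1820 several and 16004 none. Features with 1 symbol were averaged per symbol, as in the study's methods, which gave 22180 genes. Columns were mapped to mice by their labels, and replicates are separate mice. Groups were compared in R 4.3.3 with limma 3.58.1 (lmFit and eBayes, group as the only factor) and Benjamini-Hochberg adjustment over all genes. No filter on low values was used in the main comparison. The threshold was an adjusted p of 0.05, and the scripts were tested on simulated data. The background level was set from olfactory receptor genes after the data were seen, because no control probe set could be named from the annotation. A gene was taken to be at the upper limit within 1 log2 unit of 19.93, the highest value. No pair of arrays had more than 0.341% of features with equal values. The members, gene lists and related pairs were chosen with earlier results of these data known. The text names every called member, both genes of each related pair and the 4 uncalled members with the smallest adjusted p. It also names up to 2 higher and 2 lower genes of other lists, and the uncalled enzyme Fech outside this rule. Alternatives were quantile normalisation, centring on medians, taking 1 feature per gene (the brightest), testing brighter genes only, other variance models, array weights, a replicate block, an adjusted p of 0.15 and leaving out arrays.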

Additional observations from a re-analysis of the deposited data

Results flagged for a closer look

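In 8 of 92 groups of 4 values (46 members in 2 groups), 1 array stood apart from the other 3 by Dixon's ratio, and chance gives about 1 in 20. In called genes these were Slc25a28 in PBS 1 (9.88, others 9.48 to 9.54), Slc25a33 in IL1B 2 (8.61, others 9.48 to 9.65), Slc25a35 in IL1B 3 (5.31, at background, others 5.81 to 5.90), Slc25a42 in IL1B 3 (10.01, others 10.24 to 10.28) and Slc25a46 in PBS 4 (14.06, others 13.60 to 13.65). The array that stood apart lay farther from the other group for Slc25a33, Slc25a35, Slc25a42 and Slc25a46, and nearer to it for Slc25a28. In genes that were not called, they were Slc25a24 in PBS 2 (6.15, at background, others 6.33 to 6.35), Slc25a31 in IL1B 2 (4.95, at background, others 5.31 to 5.36) and Slc25a48 in PBS 4 (6.93, others 7.35 to 7.41).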

How the results depend on the processing

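Slc25a30, Slc25a42, Slc25a33, Slc25a11 and Slc25a51 were called in each of the 8 comparisons that left out 1 array and under each other setting, except that Slc25a30 and Slc25a11 were lost without IL1B 1 and IL1B 2 together. Their log2 fold changes with 1 array left out ran from -4.70 to -3.36, -2.35 to -1.99, -1.51 to -1.16, -1.04 to -0.81 and 1.70 to 2.14. Slc25a35 lost its call without PBS 1 (range -0.81 to -0.61), Slc25a28 without PBS 2, PBS 3, PBS 4, IL1B 1 or IL1B 2 (0.54 to 0.71), Slc25a37 without any array but PBS 3 or IL1B 2 (0.71 to 0.97), and Slc25a46 with median centring or without any array but IL1B 4 (-0.67 to -0.48). The count of members called higher, 3 in the report, was 1 with quantile normalisation (5.95% of all genes) and 5 at an adjusted p of 0.15 (11.9%). It was 1 to 2 with 1 array left out (1 without PBS 2, PBS 4 or IL1B 1). In those comparisons 4.88% to 6.31% of all genes were higher, beside 7.19% with all arrays. The count of members called lower, 6 in the report, was 10 with the filter on dim genes (37 members tested, 11.8% of the 11090 genes tested were lower). It was 14 at an adjusted p of 0.15 (11.7% of all genes) and 4 to 7 with 1 array left out. In the latter comparisons 3.05% to 4.86% of all genes were lower, beside 5.32% with all arrays. The labels do not say whether replicate numbers pair the mice. Correlations of same-numbered deviations were -0.14, 0.30, 0.07 and 0.21, beside -0.27 to 0.16 for arrays with different numbers, and pairing was not tested. With the number as a replicate block 10 members were lower (4.93% of all genes) and 3 higher (6.62% of all genes). Slc25a10 (adjusted p = 0.0324 by limma), Slc25a13 (0.0186), Slc25a20 (0.00731) and Slc25a23 (0.0175) were among the 10. The median of -0.22 ran from -0.24 to -0.07 with 1 array left out, the latter without IL1B 2. Signs turned only in members or pairs that were not called. With median centring Slc25a26 was at 0.0084 and Slc25a39 at 0.0055, and Slc25a39 was at 0.0092 with array weights. Slc25a4 minus Slc25a5 was -0.020 with quantile normalisation. With 1 array left out, Slc25a1 ran from -0.16 to 0.014, Slc25a15 from -0.065 to 0.29, Slc25a21 from -0.64 to 0.14, Slc25a25 from -0.72 to 0.077, Slc25a26 from -0.27 to 0.16, Slc25a27 from -0.042 to 0.37, Slc25a39 from -0.18 to 0.19 and Slc25a4 minus Slc25a5 from -0.063 to 0.24. The cause of these changes was not tested. The comparisons without PBS 2 and IL1B 2, or without IL1B 1 and IL1B 2, were chosen after seeing the data. Dim signal limits the 8 members at background in both groups.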
